A study of Mus musculus with 8 samples.

Results

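The endothelial and endocardial genes described here are 37 genes used by the cells that line vessels and the heart, or by their precursors. The rule was a list of gene names without a threshold on any value, drawn up with earlier results of these data known, and all 37 were present in the table of 14608 genes. The table holds bulk poly(A) RNA-seq of the mouse outflow tract (OFT), the vessel at the arterial pole of the embryonic heart in which the semilunar valves form, at embryonic day 11.5. 4 libraries came from control embryos and 4 from Mib1V943F/+ Gata6STOP/+ embryos. These carried, on 1 copy each, a missense allele of Mib1, an E3 ubiquitin ligase that Notch ligands need for signalling, and a STOP allele that is a null allele of Gata6, a cardiac zinc finger transcription factor. The label Control gives no allele, and neither the strain nor the sex of the embryos was given in the sources used here. No Cre driver is named for either allele, so both are taken to be in every cell of the embryo, and the comparison holds the response of endothelial cells together with that of the cells around them. Each library was a pool, of 3 individuals by the sample notes. The methods of the study give another number of tissues per pool, and fewer pools per genotype than the 4 libraries of a group. The number of embryos behind a value is thus not settled, nor is how the 4 libraries relate to those pools.

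The inner surface of the heart is the endocardium, a specialised endothelium that is continuous with the vessels. In the OFT and the atrioventricular canal, some endocardial cells leave the sheet, enter the cardiac jelly and become the mesenchyme of the valve cushions, a process that requires Notch signalling in the endocardium. Endothelial identity is held by ETS, SOXF and GATA factors. Vascular endothelial growth factor (VEGF) receptors and the Tie receptors give growth and survival signals, and KLF factors follow the shear stress of flowing blood.

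The values are CPM, the reads of a gene scaled to a common library total by the TMM method. Differences are log2 fold changes of mutant-labelled minus control-labelled libraries on the log2(CPM + 0.5) scale, which understates the difference of genes with few reads. They were tested by limma over all 14608 genes. Control replicate 2 had 10669420 reads on listed genes, and the other libraries had 21064242 to 30469165. Gata6 was at 236, 279, 271 and 261 CPM in controls against 213, 284, 276 and 224 CPM in mutants, and Mib1 at 138, 107, 109.9 and 132 CPM against 123, 137, 123 and 126 CPM. The groups overlapped for both genes, so RNA levels do not check the genotypes, and the groups are named by their labels, in short controls and mutants. In a bulk sample, fewer endothelial cells and less RNA per endothelial cell cannot be told apart.

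Endothelial RNA was present in all 8 libraries, and Cdh5, the gene of VE-cadherin, was at 187 ± 20.4 CPM in controls and 176 ± 11.1 CPM in mutants (SD, n = 4 each). The median of the members' mean levels was 27.0 CPM, against 26.7 CPM over all genes, and 35 of the 37 had a mean of at least 5 CPM. Per kilobase of exon, the highest levels in control-labelled libraries were those of Eng, with 48.9 CPM per kb, Plvap, with 48.4, Tek, with 35.5, and Tie1, with 29.0. The lowest were those of Lyve1, a hyaluronan receptor of lymphatic endothelium and of some macrophages, with 0.730 CPM per kb, Apln, with 1.14, and Robo4, with 1.22.

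**Figure D1:**
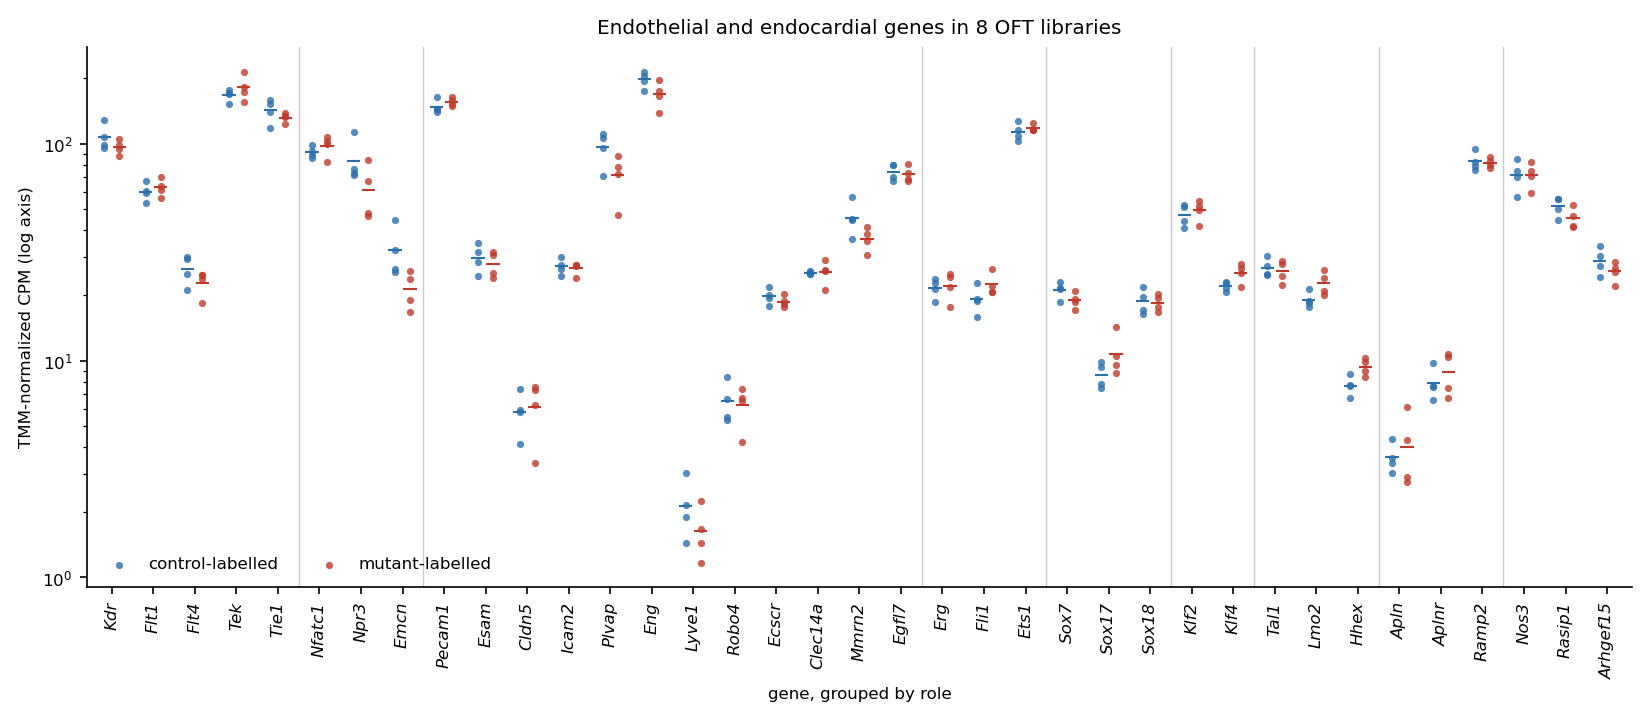
Level of the 37 genes in each library, in TMM-normalized CPM on a log axis, with genes grouped by role, blue points for the 4 control-labelled libraries, red points for the 4 mutant-labelled libraries and lines at the group means. The levels run from about those of Lyve1 (2.13 CPM in controls) to those of Eng (198 CPM), and red and blue points overlap for every gene.

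Most of these genes were at similar levels in both groups. The log2 fold changes ran from -0.57 to 0.29, with 16 above 0 and 21 below it, and their median was -0.02, against 0.00 over all genes. With adjustment over all genes, 0 of the 37 passed a threshold of 0.05 in limma, where 0 of the 14608 genes did, and the smallest adjusted p among the members was 0.280. At an unadjusted p under 0.05, 8 of the 37 (21.6%) passed, against 12.1% of all genes. Of these 8, Klf4, Lmo2 and Hhex were higher in the mutant-labelled libraries, which is 8.11% of the members against 5.45% of all genes. Emcn, Npr3, Plvap, Eng and Mmrn2 were lower, which is 13.5% against 6.62%. For 0 of the 37 did all 4 libraries of one group lie beyond all 4 of the other, against 7.1% of all genes (3.2% higher in mutants and 3.9% lower). On the recovered reads, edgeR's likelihood ratio test also called 0 of the 37 after adjustment, against 0.732% of all genes, as did its quasi-likelihood test and DESeq2. The smallest adjusted p among the members was that of Emcn in each of these tests. It was 0.0968 in the likelihood ratio test, 0.273 in the quasi-likelihood test and 0.0548 in DESeq2. The 8 genes are therefore described by their values in every library.

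The count of 8 depends on single libraries. Without mutant replicate 2 it was 1, which was Emcn, against 9.1% of all genes. Without control replicate 1 it was 2, which were Emcn and Fli1, against 11.8% of all genes. It was 3 without control replicate 2 and 3 without control replicate 3, where 7.67% and 8.02% of all genes passed. Without any other single library it was 5 to 9. Without control replicate 1 and mutant replicate 2 together, a comparison chosen after the values were seen, it was 3. These were Emcn, Lyve1 and Fli1, and 10.3% of all genes passed. Emcn had an unadjusted p under 0.05 in the main comparison and in all 20 alternatives.

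**Figure D2:**
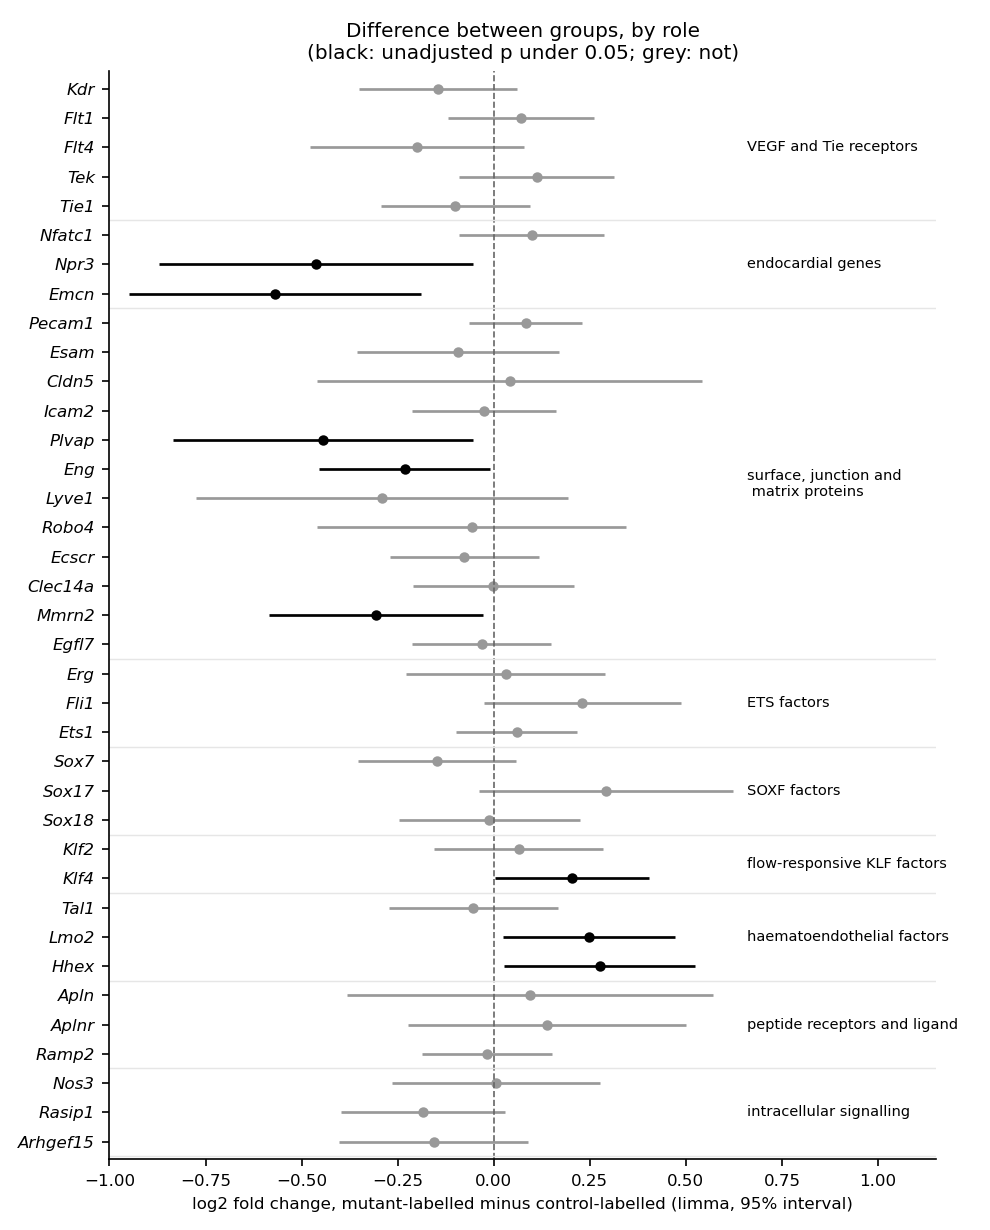
Log2 fold change of each gene, mutant-labelled minus control-labelled, with its 95% interval from limma (4 against 4 libraries), grouped by role and drawn in black where the unadjusted p was under 0.05. The 8 black genes are Emcn, Npr3, Plvap, Eng and Mmrn2 to the left of 0 and Klf4, Lmo2 and Hhex to the right, and 0 of the 37 passed after adjustment over all genes.

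Among the endocardial genes, Emcn and Npr3 were lower in the mutant-labelled libraries and Nfatc1 was not. Emcn (ENSMUSG00000054690, chr3:137341067-137432185, plus strand, GRCm38) encodes endomucin, a sialoglycoprotein of the surface of endocardium, veins and capillaries. Replicates 1 to 4 of the controls had 44.4, 26.6, 32.5 and 25.6 CPM, and replicates 1 to 4 of the mutants, in the same order, had 25.9, 16.8, 19.0 and 23.8 CPM. Only the highest mutant-labelled library and the lowest control-labelled library overlapped, by a narrow margin. The means were 32.3 ± 8.64 CPM (SD, n = 4) and 21.4 ± 4.22 CPM (SD, n = 4). The log2 fold change was -0.57 (SE 0.17, 95% interval -0.95 to -0.19), or 0.674-fold, with an adjusted p of 0.280 and an exact two-sided permutation p of 0.0571. The smallest p that the 70 relabellings of 4 against 4 libraries can give is 0.0286.

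Npr3 (ENSMUSG00000022206, chr15:11839896-11907287, minus strand) encodes the clearance receptor for natriuretic peptides and marks the endocardium of the embryonic heart. The controls had 113, 76.6, 73.6 and 71.6 CPM and the mutants 67.2, 47.8, 46.6 and 83.8 CPM. Control replicate 1 stood far above the other controls, and mutant replicate 4 was higher than 3 of the 4 controls. The log2 fold change was -0.46 (SE 0.19, 95% interval -0.87 to -0.05), with an adjusted p of 0.380 and an exact permutation p of 0.171.

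Nfatc1, the transcription factor by which valve endocardium is most often recognised, was at 89.0, 92.4, 85.6 and 98.4 CPM in controls and at 82.4, 99.9, 103 and 108 CPM in mutants. Its log2 fold change was 0.10, and the 95% interval of -0.09 to 0.29 leaves out a decrease of the size estimated for Emcn or Npr3. Set against the pan-endothelial gene Pecam1 in the same library, Nfatc1 was at 62.0 ± 5.79% of the Pecam1 level in controls and at 62.7 ± 5.88% in mutants (SD, n = 4 each). The same ratio for Emcn was 27.2, 18.4, 23.3 and 17.7% in controls and 17.3, 10.2, 12.4 and 14.9% in mutants, and these groups did not overlap. Of all genes, 5.89% had a ratio to Pecam1 that was lower in the mutants without overlap. Against Cdh5, the ratio of Emcn was 17.2 ± 3.50% in controls and 12.1 ± 1.74% in mutants (SD, n = 4 each), and the groups overlapped. Nfatc1 was at 49.6 ± 8.52% of the Cdh5 level in controls and at 56.1 ± 7.74% in mutants (SD, n = 4 each), also with overlap. For Npr3, Plvap and Eng, the groups overlapped in the ratio to Pecam1 and in that to Cdh5. Both ratios were chosen after the values were seen, so no p is given.

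The sequence before the start of transcription is shown for 4 of the 8 genes with an unadjusted p under 0.05, those from either direction and both endocardial genes among them. ETS factors, 3 of which are members, bind around a GGAA core, and the capitals mark the letters AGGAAG or CGGAAG on either strand. Sequences are from RefSeq (GRCm38.p6) and run 5′ to 3′ on the strand of the gene. Each ends at the base before the start used there, or before the first base of an annotated exon. For Npr3, that start lies outside the gene span given above. The sequences lie at chr3:137340828-137341066 (plus strand) for Emcn, chr15:11907372-11907621 (minus strand) for Npr3, chr2:32646345-32646594 (plus strand) for Eng and chr19:37434591-37434809 (plus strand) for Hhex.
Emcn: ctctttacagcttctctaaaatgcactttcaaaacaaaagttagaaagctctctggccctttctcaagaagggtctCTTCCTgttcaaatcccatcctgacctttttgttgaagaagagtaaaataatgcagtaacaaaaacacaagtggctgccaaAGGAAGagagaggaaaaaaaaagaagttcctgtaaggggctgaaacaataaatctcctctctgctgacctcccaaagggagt
Npr3: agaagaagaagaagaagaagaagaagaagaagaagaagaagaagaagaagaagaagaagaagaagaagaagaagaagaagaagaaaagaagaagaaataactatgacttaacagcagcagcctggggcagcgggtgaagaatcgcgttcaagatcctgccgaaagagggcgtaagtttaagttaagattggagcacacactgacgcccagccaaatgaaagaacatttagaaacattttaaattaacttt
Eng: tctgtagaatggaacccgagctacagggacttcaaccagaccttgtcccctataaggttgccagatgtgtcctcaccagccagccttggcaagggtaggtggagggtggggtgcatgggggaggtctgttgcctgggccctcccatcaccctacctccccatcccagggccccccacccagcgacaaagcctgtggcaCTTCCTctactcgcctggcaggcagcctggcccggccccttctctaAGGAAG
Hhex: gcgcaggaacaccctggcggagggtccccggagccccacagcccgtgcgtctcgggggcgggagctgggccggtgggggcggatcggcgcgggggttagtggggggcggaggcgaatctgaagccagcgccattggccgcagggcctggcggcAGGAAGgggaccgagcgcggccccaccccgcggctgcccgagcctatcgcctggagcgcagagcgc
These letters occurred at 2 places before Emcn, at 2 before Eng and at 1 before Hhex, and at none before Npr3. Klf4 also had a promoter entry, which is not shown, and it held none of these letters. Plvap, Mmrn2 and Lmo2 had no entry. Of 32851 windows of 250 bases in the promoter table, 39.2% held the ETS letters. Counted per gene, 42.5% of genes in that table had a window that held them, as did 10 of the 19 members that had an entry (52.6%). The GATA letters AGATAA or TGATAA were found for 18.8% of all genes, for 3 of the 19 members (15.8%) and for none of the 4 shown. A match of letters is a description and does not show that a factor binds.

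Of the 12 surface, junction and matrix proteins, Plvap, Eng and Mmrn2 were lower at an unadjusted p under 0.05, and 0 of the 12 were higher. With the trend of the fold changes on GC content removed, none of the 3 had an unadjusted p under 0.05. Their log2 fold changes were then -0.32, -0.14 and -0.26. Plvap also missed that threshold with DESeq2, and Mmrn2 with centring on other endothelial genes. Eng also missed it without TMM, in edgeR's quasi-likelihood test, under a replicate block and with that centring. Each of the 3 missed it in some of the fits that left out libraries. Plvap (ENSMUSG00000034845, chr8:71497765-71511752, minus strand) encodes the protein of the diaphragms that span endothelial fenestrae and caveolae. Its values were 107, 111, 96.0 and 71.4 CPM in controls and 88.1, 47.1, 72.2 and 78.4 CPM in mutants. Control replicate 4 was lower than 3 of the 4 mutants, and mutant replicate 2 was the lowest of all. The log2 fold change was -0.44 (SE 0.18, 95% interval -0.83 to -0.05), with an adjusted p of 0.380 and an exact permutation p of 0.143.

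Eng (ENSMUSG00000026814, chr2:32646595-32682669, plus strand) encodes endoglin, a co-receptor for BMP9 and BMP10 on endothelial cells. It was at 206, 215, 196 and 175 CPM in controls and at 167, 138, 176 and 196 CPM in mutants, with a log2 fold change of -0.23 (SE 0.10, 95% interval -0.45 to -0.01). The adjusted p was 0.402 and the exact permutation p 0.143. Mutant replicate 4 was level with control replicate 3 and above control replicate 4.

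Mmrn2 (ENSMUSG00000041445, chr14:34375465-34404287, plus strand) encodes multimerin 2, an endothelial matrix protein that binds Clec14a. It was at 56.7, 44.9, 44.5 and 36.3 CPM in controls and at 38.4, 30.7, 35.6 and 41.5 CPM in mutants, with a log2 fold change of -0.31 (SE 0.13, 95% interval -0.58 to -0.03). The adjusted p was 0.392 and the exact permutation p 0.0857. Against Cdh5 in the same library, Mmrn2 was at 24.3 ± 2.42% in controls and 20.8 ± 1.43% in mutants (SD, n = 4 each) without overlap. Of all genes, 1.4% had a lower ratio to Cdh5 without overlap. Against Pecam1, the groups overlapped for Mmrn2, with control replicate 4 at 25.2% and mutant replicates 1 and 4 at 25.7% and 25.9%. As for Emcn, these ratios were chosen after the values were seen. Clec14a, the partner of Mmrn2, was at 25.4 ± 0.402 CPM in controls and 25.6 ± 3.34 CPM in mutants (SD, n = 4 each), or 0.999-fold in mutants.

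Pecam1, the platelet endothelial adhesion molecule of cell junctions, was at 163, 144, 139.8 and 144 CPM in controls and at 149, 164, 153 and 159.8 CPM in mutants. Its log2 fold change was 0.08, with a 95% interval of -0.06 to 0.23 that leaves out any decrease larger than 0.06. The junction genes Esam, Cldn5 and Icam2 had log2 fold changes of -0.09, 0.04 and -0.03. Those of the guidance receptor gene Robo4, of Ecscr and of the secreted factor Egfl7 were -0.06, -0.08 and -0.03. Lyve1 was at 2.13 ± 0.666 CPM in controls and 1.63 ± 0.456 CPM in mutants (SD, n = 4 each), and its interval, from -0.78 to 0.19, was among the widest of all 37.

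**Figure D3:**
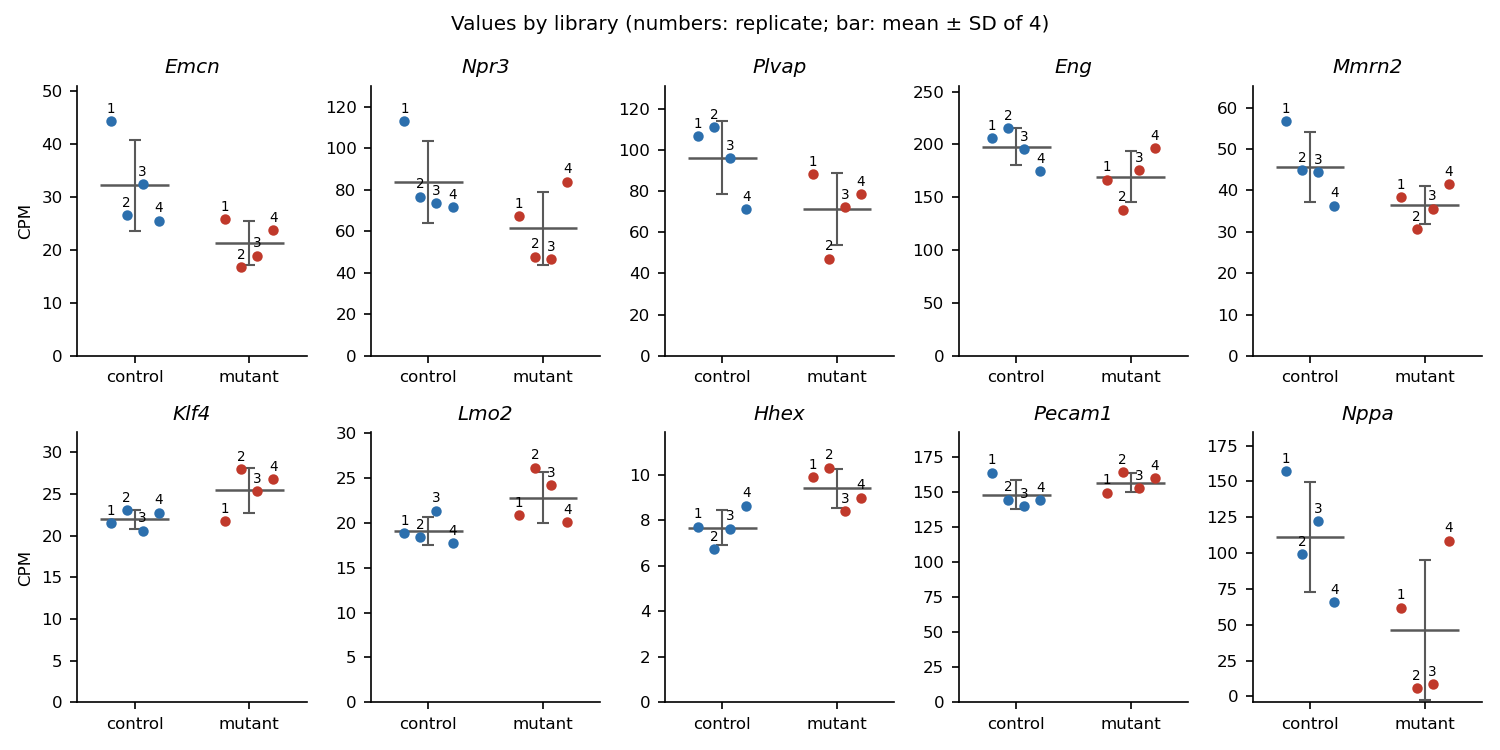
CPM in each library (numbers give the replicate) with the mean and SD of 4 libraries per group, for the 8 genes with an unadjusted p under 0.05, for Pecam1 and for the myocyte gene Nppa. Mutant replicate 2 is the lowest library for Emcn, Plvap, Eng and Mmrn2 and mutant replicate 3 for Npr3, while Pecam1 is at 139.8 to 164 CPM in all 8.

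The receptors for VEGF and angiopoietin had no member past an unadjusted p of 0.05. Kdr, which encodes VEGFR2, the main signalling receptor for VEGF-A, was at 128, 98.4, 108 and 96.0 CPM in controls and at 94.8, 88.0, 99.2 and 106 CPM in mutants. Its log2 fold change was -0.14 (95% interval -0.35 to 0.06, adjusted p = 0.539). Flt1, whose product binds VEGF-A as a decoy, was at 60.0 ± 5.59 CPM in controls and 63.0 ± 5.74 CPM in mutants (SD, n = 4 each). Flt4, which encodes VEGFR3, the receptor for VEGF-C, was at 30.2, 25.0, 29.4 and 21.3 CPM in controls and at 24.8, 18.4, 23.8 and 24.8 CPM in mutants. Its log2 fold change was -0.20 (95% interval -0.48 to 0.08, adjusted p = 0.532), and the groups overlapped.

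Tek, the angiopoietin receptor Tie2, was at 177, 152, 171 and 169 CPM in controls and at 156, 215, 173 and 184 CPM in mutants. Mutant replicate 2, the lowest library for Plvap, Eng, Mmrn2 and Flt4, was the highest for Tek. For Tek, the log2 fold change was 0.11 (95% interval -0.09 to 0.31), and that of its partner Tie1 was -0.10.

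Of the 6 ETS and SOXF factors, 0 passed an unadjusted p of 0.05. Erg, an ETS factor that maintains endothelial junctions, was at 23.7, 18.6, 21.3 and 22.9 CPM in controls and at 24.4, 17.6, 21.8 and 25.0 CPM in mutants, a log2 fold change of 0.03. Fli1 and Ets1 had log2 fold changes of 0.23 and 0.06. Of the SOXF factors, which act in arterial and lymphatic specification, Sox17 was at 7.78, 7.49, 9.88 and 9.33 CPM in controls and at 9.57, 14.3, 10.5 and 8.76 CPM in mutants. Its log2 fold change of 0.29 (95% interval -0.04 to 0.62, adjusted p = 0.452) was the highest among the members, and mutant replicate 2 lay above all others. Sox18 was at 16.4, 21.9, 19.7 and 17.1 CPM in controls and at 16.8, 20.4, 19.3 and 17.6 CPM in mutants, a log2 fold change of -0.01. That of Sox7 was -0.15.

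Klf4, but not Klf2, was higher in mutants at an unadjusted p under 0.05, although the difference between these 2 flow-responsive factors was not tested. Klf4 (ENSMUSG00000003032, chr4:55527143-55532466, minus strand) was at 21.5, 23.0, 20.6 and 22.8 CPM in controls and at 21.8, 28.0, 25.4 and 26.8 CPM in mutants. Of the mutants, 3 of 4 were above all controls, and the log2 fold change was 0.20 (SE 0.09), with an adjusted p of 0.411 and an exact permutation p of 0.0857. Klf2 was at 41.0, 52.4, 51.2 and 44.0 CPM in controls and at 42.0, 51.7, 54.2 and 49.5 CPM in mutants, a log2 fold change of 0.06 (95% interval -0.16 to 0.28).

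Lmo2 and Hhex, of the factors shared by blood and endothelial precursors, were higher in mutants at an unadjusted p under 0.05, and Tal1 was not. Lmo2 (ENSMUSG00000032698, chr2:103957986-103981878, plus strand), whose product bridges Tal1 and GATA factors, was at 18.8, 18.4, 21.3 and 17.7 CPM in controls and at 20.9, 26.1, 24.2 and 20.1 CPM in mutants. Only control replicate 3 reached into the range of the mutants. The log2 fold change was 0.25 (SE 0.10), with an adjusted p of 0.389 and an exact permutation p of 0.0857. Hhex (ENSMUSG00000024986, chr19:37434810-37440731, plus strand), a homeobox factor of the early vasculature and of cushion development, was at 7.71, 6.73, 7.62 and 8.63 CPM in controls and at 9.90, 10.3, 8.39 and 8.99 CPM in mutants. The groups overlapped through 1 library of each, and the log2 fold change was 0.28 (SE 0.11, 95% interval 0.03 to 0.52), with an adjusted p of 0.389 and an exact permutation p of 0.0571. Tal1 was at 24.8, 30.3, 25.0 and 27.2 CPM in controls and at 27.9, 28.8, 22.3 and 24.5 CPM in mutants, a log2 fold change of -0.05.

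Peptide signalling and intracellular signalling genes had no member past an unadjusted p of 0.05. Apln, the ligand apelin made by sprouting endothelium, was at 3.39, 3.03, 4.36 and 3.55 CPM in controls and at 2.89, 6.11, 4.32 and 2.74 CPM in mutants, and the spread of the mutants was the widest in relation to the mean of any member, with a coefficient of variation of 39.0%. Its log2 fold change was 0.09 (95% interval -0.38 to 0.57), that of its receptor Aplnr 0.14, and that of Ramp2, the partner of the adrenomedullin receptor, -0.02. Nos3, the endothelial nitric oxide synthase, was at 70.3, 85.1, 75.1 and 56.7 CPM in controls and at 59.1, 82.2, 74.9 and 71.2 CPM in mutants, a log2 fold change of 0.01 (95% interval -0.26 to 0.28). Rasip1, an effector of Ras and Rap that vessels need to form a lumen, and the exchange factor gene Arhgef15 had log2 fold changes of -0.18 and -0.16.

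For the 29 genes at an unadjusted p of 0.05 or above, the estimate did not exceed 0.29 in size, and for 27 of them the whole 95% interval lay within a 1.5-fold difference in either direction. The data thus set limits on the difference of most members, but they do not show that the groups were alike.

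The 5 lower genes, and Klf4, Lmo2 and Hhex, were picked by their group difference in these same libraries. Which group stood higher was thus set by that choice, and the order of libraries is described without a test. The 5 lower genes and the 29 genes at an unadjusted p of 0.05 or above had different libraries at their ends. On the log2 scale, the mean deviation of the 5 lower genes from their own means over 8 libraries was 0.50, 0.20, 0.18 and -0.08 for the controls in order of their number, and -0.03, -0.54, -0.28 and 0.05 for the mutants. Control replicate 1 was the highest and mutant replicate 2 the lowest, and mutant replicates 1 and 4 did not stand below control replicate 4. For Klf4, Lmo2 and Hhex it was -0.13, -0.17, -0.10 and -0.08 in controls and 0.03, 0.28, 0.10 and 0.07 in mutants, with mutant replicate 2 the highest. The median deviation of the 29 other genes was 0.06, 0.04, 0.03 and -0.10 in controls and -0.05, 0.11, 0.02 and 0.00 in mutants. Mutant replicate 2, lowest in the 5 genes, was thus the highest library in the 29. It was the highest of the 8 libraries for 10 of the 37 genes and the lowest for 8 of them. The share over all genes is not given here, so these counts are not a trait of the members. Outside the 37, mutant replicate 2 was also the highest library for every epicardial marker described below and the lowest for Nppa.

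**Figure D4:**
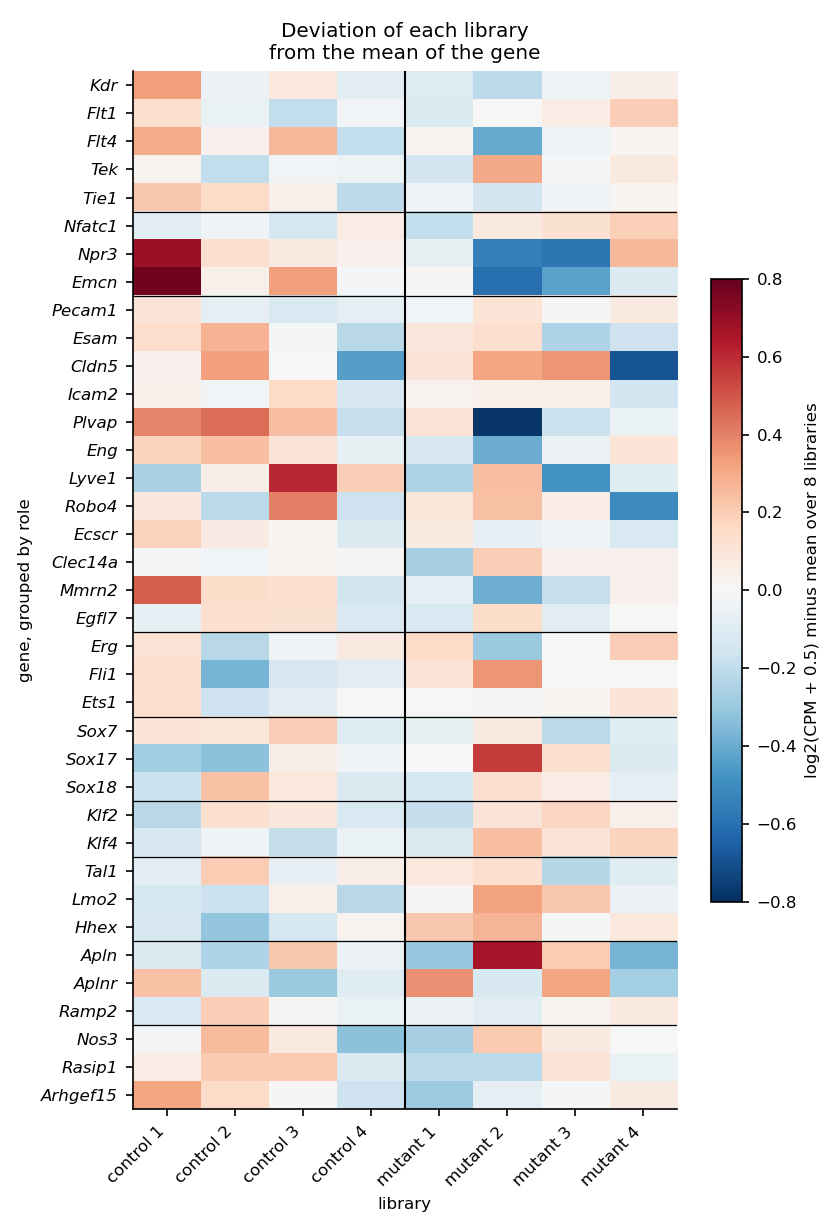
Deviation of each library from the mean of each gene over the 8 libraries, as a difference of log2(CPM + 0.5) (red higher, blue lower), with genes in rows grouped by role and libraries in columns. Mutant replicate 2 is dark blue for Emcn, Npr3, Plvap, Eng and Mmrn2 and red for Sox17 and Apln, and control replicate 4 is above the gene's mean for 7 of the 37 genes.

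The spread between replicates was similar in both groups. The coefficient of variation over 4 libraries had a median of 11.7% in controls and 12.2% in mutants. In controls it ran from 1.58% for Clec14a to 31.3% for Lyve1, and in mutants from 3.46% for Ets1 to 39.0% for Apln.

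Other genes of endothelial cells stood on both sides of 0. Of 19 such genes outside the 37, 3 were higher and 3 lower at an unadjusted p under 0.05, with a median log2 fold change of -0.08. Cd34, a sialomucin of endothelium and of progenitor cells, was at 183 ± 8.44 CPM in controls and 233 ± 36.9 CPM in mutants, a log2 fold change of 0.34. Calcrl, the adrenomedullin receptor that works with Ramp2, was at 58.2 ± 10.1 CPM and 79.4 ± 12.2 CPM, a log2 fold change of 0.45. Cd34 and Calcrl were higher in all 4 mutants than in any control. Stab1, a scavenger receptor of endothelium and macrophages, was at 94.2 ± 12.6 CPM and 76.2 ± 6.09 CPM, a log2 fold change of -0.30 (SD, n = 4 for each mean). None of these passed the adjustment over all genes, and limma called 0 genes in any list below after it.

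Of 9 VEGF and angiopoietin ligands and co-receptors, 2 were higher and 2 lower at an unadjusted p under 0.05. Vegfb, a ligand of Flt1, was at 93.0 ± 14.5 CPM in controls and 68.2 ± 7.74 CPM in mutants (SD, n = 4 each), with no overlap and a log2 fold change of -0.44. Vegfa, the main ligand of Kdr, had a log2 fold change of -0.17 and Nrp2, a co-receptor for VEGF-C and semaphorins, one of 0.21. Of 9 arterial and venous genes, 0 were higher and 2 were lower at that threshold. The arterial connexin gene Gja5, which atrial and trabecular myocytes also use, had a log2 fold change of -0.50, and the Notch ligand gene Dll4 one of -0.28. The Notch target Hey1 was at 39.0 ± 3.02 CPM in controls and 45.5 ± 6.47 CPM in mutants (SD, n = 4 each), and its log2 difference was 0.21.

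A further list joined genes of several pathways, those of BMP9 and BMP10, of the CCM proteins and of flow. Of its 19 genes, 4 were higher and 0 lower at an unadjusted p under 0.05, with a median log2 fold change of 0.09. As the list is mixed, these counts do not give the direction of any 1 pathway. Thbd, the anticoagulant thrombomodulin and a target of KLF factors, was at 27.0 ± 0.957 CPM in controls and 33.9 ± 3.36 CPM in mutants (SD, n = 4 each), with no overlap and a log2 fold change of 0.32. Id1 and Id2, which BMP signals induce, had log2 fold changes of 0.25 and 0.16. Of 15 genes of the endocardial to mesenchymal transition of the cushions, 1 was higher and 1 lower at that threshold. Hapln1, which links hyaluronan to proteoglycan in the cushions, was at 331 ± 41.8 CPM in controls and 395 ± 26.8 CPM in mutants (SD, n = 4 each), a log2 difference of 0.26, and Tgfbr3, the co-receptor betaglycan, had a log2 fold change of -0.66. Has2, the hyaluronan synthase of the cushions, had a log2 fold change of 0.23. Of 4 lymphatic genes measured, 0 passed in either direction, and their median log2 fold change was 0.03. Reln, Pdpn and Prox1 had log2 fold changes of 0.28, 0.16 and -0.11.

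**Figure D5:**
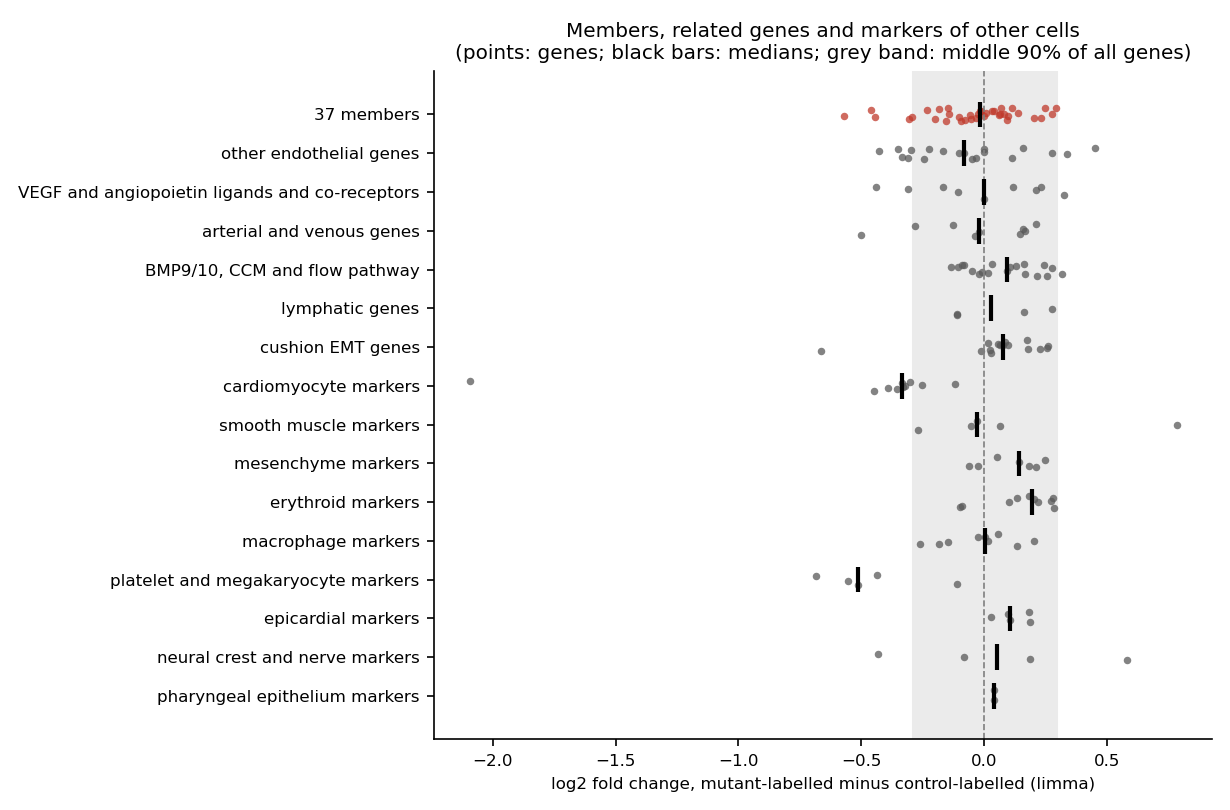
Log2 fold change, mutant-labelled minus control-labelled, of the 37 members (red) and of each list of related genes and of markers of other cells (grey points, 1 per gene), with black bars at medians and a grey band over the middle 90% of all genes. Medians of the endothelial lists lie near 0, and those of the cardiomyocyte markers (-0.33) and of the platelet and megakaryocyte markers (-0.51) lie to the left.

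Markers of cardiomyocytes and of platelets were mostly lower in the mutants. Of 10 cardiomyocyte markers, 9 were lower and 0 higher in mutants at an unadjusted p under 0.05, with a median log2 fold change of -0.33, and 8 of them did not overlap. Their summed level was 24770 to 29113 CPM in controls and 19595 to 23363 CPM in mutants. Tnnt2, Tnni1 and Myl4, genes of the contractile apparatus, had log2 fold changes of -0.35, -0.33 and -0.32. Nppa, the atrial natriuretic peptide gene, was chosen for its order of libraries after the values were seen. It was at 157, 99.1, 122 and 65.9 CPM in controls and at 61.9, 5.67, 8.68 and 109 CPM in mutants, so that its highest library was control replicate 1 and its lowest mutant replicate 2, as for the mean of the 5 lower members. Tgfbr3 was at 66.4, 34.5, 30.3 and 32.7 CPM in controls and at 27.5, 15.4, 22.5 and 36.6 CPM in mutants, with the same libraries at its ends. Of the other cardiomyocyte markers, Myh6, Myh7 and Actc1 also had both of these libraries at their ends. Tnnt2, Tnni3, Tnni1, Myl7, Myl4 and Ttn did not. The part of the myocyte content in the levels of the 5 lower genes was not tested.

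Of 5 platelet and megakaryocyte markers measured, 3 were lower (Itga2b, Ppbp and Gp9) and 0 higher, with a median log2 fold change of -0.51. Their sum was 63.1 to 89.0 CPM in controls and 51.0 to 72.5 CPM in mutants, and Pecam1, Tal1 and Lmo2 are also used by these cells. The 10 erythroid markers, which share Tal1 and Lmo2 with endothelial precursors, summed to 1760 to 3572 CPM in controls and 1479 to 5380 CPM in mutants, with a median log2 fold change of 0.19, and 0 passed at an unadjusted p under 0.05. The 9 macrophage markers, the cells besides endothelium that make Lyve1 and Stab1, summed to 49.5 to 65.6 CPM in controls and 52.6 to 77.4 CPM in mutants, and 0 passed. What these blood cells contribute to the values of those members was not tested.

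Of the other cell types, the 7 mesenchyme markers had a median log2 fold change of 0.14 and the 5 epicardial markers one of 0.11, with 0 of either past an unadjusted p of 0.05. Of the 5 smooth muscle markers, Myh11 was higher and Myocd lower at that threshold, with log2 fold changes of 0.78 and -0.27 and a list median of -0.03. Of 4 neural crest and nerve markers measured, Stmn2 was higher, with a log2 fold change of 0.58 and a list median of 0.05. For the pharyngeal epithelium, Krt8 and Krt18 were measured, both with a log2 fold change of 0.04.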

How the data were processed

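E11.5 OFT poly(A) RNA-seq of 4 control-labelled and 4 mutant-labelled pools was used. According to the study's methods and the processing notes, the authors trimmed reads with cutadapt, quantified them with RSEM on GRCm38 and normalized with edgeR after keeping genes with 1 CPM in at least 3 samples. The deposited values are CPM after TMM scaling, with no gene length in them. Because they are scaled to the library total, a gene's value also moves with the other genes, and the low filter had removed rarely read genes. All 8 columns were used and 0 were left out. Values came out as whole reads within 0.01 reads for 100% of values, which gave the depths. 1 read was worth 0.0948 CPM in control replicate 2 and less elsewhere.

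Differences were computed on log2(CPM + 0.5) with lmFit and eBayes with trend in limma 3.58.1 (R 4.3.3), two-sided, with Benjamini-Hochberg adjustment over 14608 genes, and tested on simulated data. Exact permutation tests used all 70 relabellings. Alternatives were other pseudocounts (0.1 and 2), a mean of at least 5 CPM, no TMM, DESeq2 size factors, edgeR 4.0.16 and DESeq2 1.42.0 on recovered reads, a replicate block, a GC correction, centring on other endothelial genes and leaving out libraries. Pools labelled as separate samples were taken as replicates, and p-values measure the spread between them. Values in every library are given for members with an unadjusted p under 0.05 and for a further 12 chosen to stand for each role. Members and lists were chosen with earlier results of these data known. Genes of the other lists were named by the smallest p, up to 3 a list, and Nppa, and the libraries of Nppa and Tgfbr3, were chosen after their values were seen. The remaining cardiomyocyte markers were named only for their order of libraries. Exon lengths came from GENCODE on GRCm38 and promoters from RefSeq, in which 19 of 37 members had an entry.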

Additional observations from a re-analysis of the deposited data

Results flagged for a closer look

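The level of each of the 37 genes was examined for a library far from the others of its group, and with Gata6 and Mib1 this made 78 groups of 4 libraries. 3 were flagged, and chance would flag about 3.9. For Npr3, control replicate 1 was at 113 CPM, and the other controls were at 71.6 to 76.6 CPM. For Flt4, mutant replicate 2 was at 18.4 CPM, and the other mutants were at 23.8 to 24.8 CPM. For Icam2, mutant replicate 4 was at 24.1 CPM, and the other mutants were at 27.5 to 27.7 CPM. Without control replicate 1, Npr3 no longer had an unadjusted p under 0.05.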

How the results depend on the processing

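Of the 37 genes, 8 had an unadjusted p under 0.05 (3 higher, 5 lower). The count was 5 with DESeq2 (3 lower), 3 without control replicate 1 and mutant replicate 2 together (1 higher, 2 lower), and 1 to 9 over the fits that left out 1 library (0 to 3 higher, 1 to 8 lower). Of all genes, 12% passed with DESeq2, 10.3% without those 2 libraries and 7.67% to 14.8% over the fits that left out 1. Removing the GC trend gave 4 higher and 2 lower, where 11% of all genes passed. Centring on other endothelial genes gave 5 higher and 3 lower and moved the median log2 fold change of the members to 0.04995 and that of all genes to 0.07, with 1266 genes higher and 310 lower over the table. Leaving out 1 library moved that median between -0.07 and 0.01. The adjusted count was 0 of 37 in the main comparison and in every alternative run, while over all genes edgeR's likelihood ratio test called 107 and DESeq2 192. Without TMM, 1161 genes were higher and 740 lower over the table, against 796 and 967 with it, and none of the 8 genes changed sign in any alternative.

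Same-numbered libraries correlated at 0.0349, -0.185, 0.0268 and -0.0454 in their deviations from the group means, so the numbers do not pair the samples. A replicate block gave 5 genes, with 1 higher, and the cause was not tested. Of all genes, 8.93% passed under that block, against 12.1% in the main comparison. Control replicate 2, with 10669420 reads, limits the low genes most. Of the 8 genes, Npr3 had an unadjusted p under 0.05 in 15 of 20 alternatives, Lmo2 in 14, Plvap in 13, Mmrn2 and Klf4 in 12, Hhex in 11 and Eng in 9.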
